A study of Mus musculus with 11 samples.

Results

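Metallothioneins and zinc transporters set how much free zinc a cell holds. Metallothioneins are small cysteine-rich proteins that bind zinc and copper in the cytosol, and their genes are switched on by the zinc-sensing transcription factor MTF-1, by glucocorticoids and by cytokines of the acute phase response. Transporters of the SLC30 (ZnT) family move zinc out of the cytosol, across the plasma membrane or into organelles, and those of the SLC39 (ZIP) family move it in. In the liver, metallothioneins and ZIP14 take part in the zinc uptake that accompanies inflammation, and ZIP8 and ZIP14 also carry manganese and iron.

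The transcripts of 10 genes of this system were examined in sorted hepatic sinusoidal endothelial cells (ECs), chosen by gene symbol from the 29307 genes of the count table: the metallothioneins *Mt1* and *Mt2*, the regulator *Mtf1*, the exporters *Slc30a1* and *Slc30a5*, and the importers *Slc39a1*, *Slc39a7*, *Slc39a8*, *Slc39a10* and *Slc39a14*. All 10 were found, and 9 passed the filter on low counts that left 12905 genes for testing. The exception was *Slc39a7*.

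The study asked how the gut microbiota shapes the hepatic endothelial transcriptome. RNA was taken from 6 conventionally raised (CONV-R, specific-pathogen-free) and 5 germ-free (GF) C57BL/6J mice, all males of 10 to 12 weeks on the same diet and without further treatment, with 1 library per mouse. GF mice were kept in isolators without any microbes. ECs were enriched on CD146 beads and sorted as live CD31+, CD105+, CD146+ cells, and their cDNA was amplified before sequencing, so that each value describes a cell population after amplification. The study reported fewer sorted cells and less RNA from GF than from CONV-R livers, and low viability of the sorted cells. The part of these in the values was not tested. One further GF library had been removed before deposit for a low number of mapped reads and is not analysed here.

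Total counts per library lay between 7922855 and 14669352 for CONV-R and between 7242717 and 16164588 for GF mice, with no shift detected between the groups (exact permutation test, two-sided, p = 0.411). The 10 sinusoidal markers summed to 32917 to 41862 CPM (counts scaled to a common library size) in CONV-R and 32703 to 46827 in GF libraries, and 0 of 10 were called different. Hepatocyte markers, 10 genes such as *Alb*, summed to 24.8 to 58.1 CPM in CONV-R and 31.4 to 79.4 in GF libraries, with 0 of 9 tested genes called. Kupffer cell markers were higher in GF: 6 of 10 genes were called, and their sum was 85.1 to 224 CPM in CONV-R against 193 to 912 in GF mice, the highest in GF replicate 6 (exact p = 0.0108). CONV-R replicate 3 stood apart in composition, with 1.82% of its counts on genes under 1000 exon bases, against 0.894% to 1.01% in the other CONV-R and 0.911% to 1.19% in the GF libraries.

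*Mt1* and *Mt2* are neighbours on chromosome 8 (GRCm38, GENCODE M21: *Mt1* at chr8:94179082-94180327 and *Mt2* at chr8:94172664-94173568, both on the plus strand), and the zinc exporter gene *Slc30a1* lies at chr1:191906767-191913247. These 3 genes are the textbook targets of MTF-1, which binds metal response elements, and their upstream sequences are therefore shown. The windows are RefSeq's (GRCm38.p6), 250 bases that end just before an annotated start site, at chr8:94172368-94172617 for *Mt2*, chr8:94178839-94179088 for *Mt1* and chr1:191906531-191906780 for *Slc30a1*, all on the plus strand. Capitals mark the core letters of the metal response element, searched as TGCACNC and TGCGCNC on both strands.
Mt2: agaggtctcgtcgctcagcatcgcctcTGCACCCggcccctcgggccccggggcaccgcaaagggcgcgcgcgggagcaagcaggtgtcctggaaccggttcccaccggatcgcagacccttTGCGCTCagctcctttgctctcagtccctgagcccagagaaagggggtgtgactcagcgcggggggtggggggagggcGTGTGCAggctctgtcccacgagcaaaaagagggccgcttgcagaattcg
Mt1: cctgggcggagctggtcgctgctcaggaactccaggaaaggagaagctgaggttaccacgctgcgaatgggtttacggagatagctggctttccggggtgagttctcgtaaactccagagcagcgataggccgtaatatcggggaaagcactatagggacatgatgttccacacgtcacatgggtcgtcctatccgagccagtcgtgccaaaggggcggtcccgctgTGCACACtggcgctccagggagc
Slc30a1: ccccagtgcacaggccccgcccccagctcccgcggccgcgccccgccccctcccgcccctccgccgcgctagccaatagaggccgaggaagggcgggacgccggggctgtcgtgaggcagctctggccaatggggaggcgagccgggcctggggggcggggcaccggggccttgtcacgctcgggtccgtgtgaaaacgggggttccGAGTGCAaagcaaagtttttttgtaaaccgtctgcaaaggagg

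Counted from 250 bases before to 50 after the start, *Mt2* held 4 matches, *Mt1* 3 and *Slc30a1* 2, and none overlapped another. Of all 32851 RefSeq mouse promoter windows of that length, 25.7% held at least 1 match, 7.11% at least 2 and 0.517% at least 4. Among the other members with a window, *Slc30a5* and 1 of the 2 windows of *Slc39a8* held 1 match, and the windows of *Mtf1*, *Slc39a1*, *Slc39a7* and *Slc39a10* held none. The full palindromic glucocorticoid response element (AGAACA, any 3 bases, TGTTCT, searched on both strands) was in 3 of the 32851 windows and in none of the members' windows. With so few matches in any window, this absence says nothing about the control of these genes by glucocorticoids. *Mt1* has further annotated transcript starts at positions 94179211 and 94179241, and *Mt2* has one at 94172860, all beyond the searched windows, so the matches describe only the letters around the upstream starts. A match is a description of the letters, not a binding site.

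**Figure D1:**
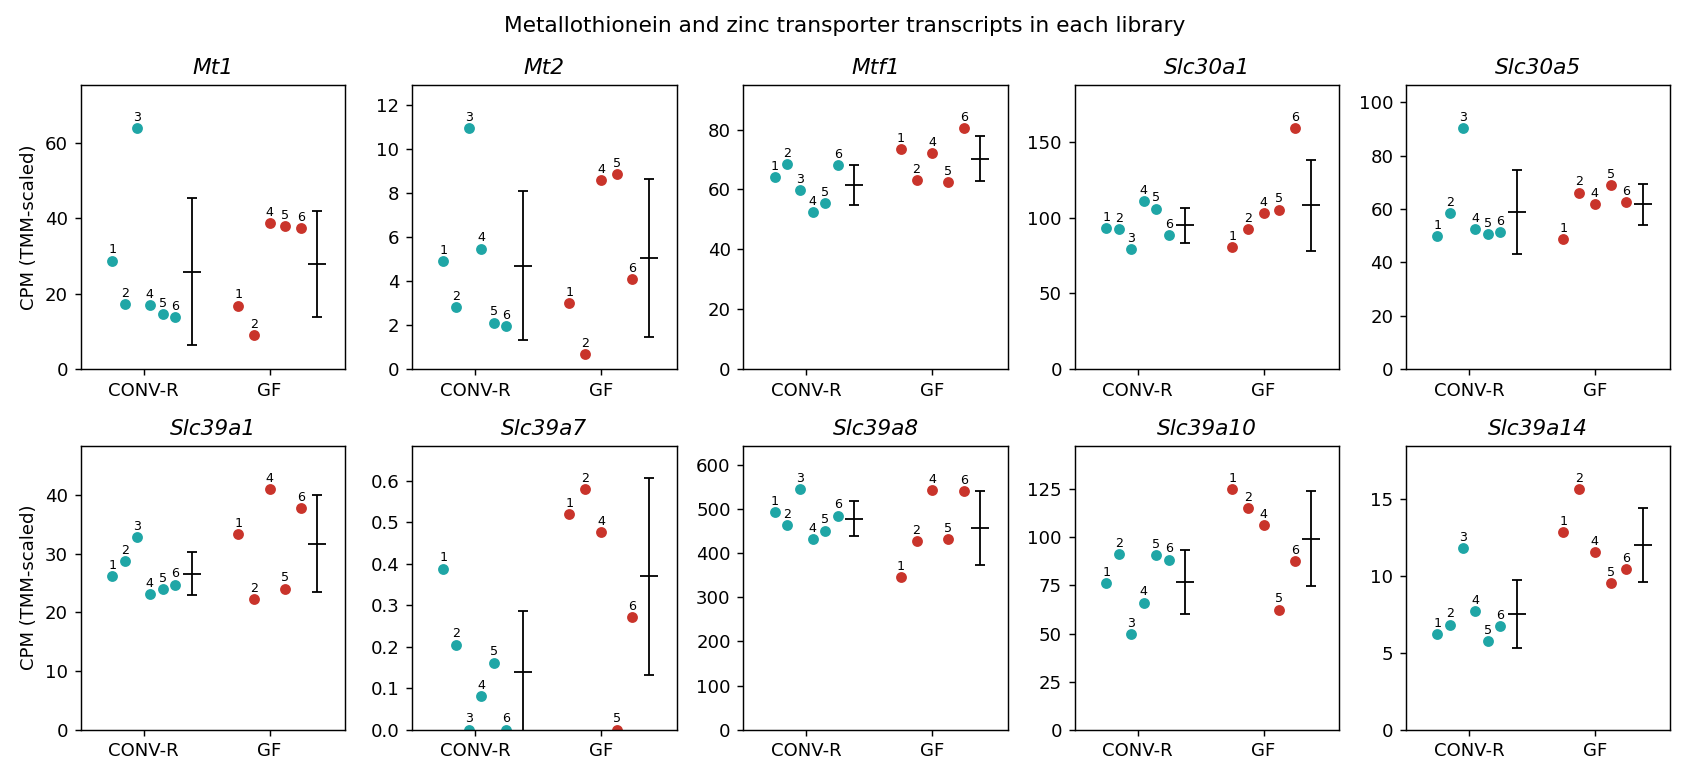
Abundance of the 10 transcripts in CPM scaled by the trimmed mean of M-values (TMM), 1 panel per gene with a linear axis from 0. Points are the 6 CONV-R (turquoise) and 5 GF (red) libraries with their replicate numbers, and black marks give the mean and SD. In every panel the points of both groups overlap, and CONV-R replicate 3 is the highest of its group for Mt1, Mt2, Slc30a5, Slc39a1, Slc39a8 and Slc39a14.

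None of the 9 tested members was called different between GF and CONV-R mice (edgeR's quasi-likelihood test, Benjamini-Hochberg adjusted p under 0.05 over all tested genes), where 7.48% of all tested genes were called, 620 higher (4.80%) and 345 lower (2.67%) in GF. The groups did not separate completely for any member, where 5.59% of all tested genes did. At an unadjusted p under 0.05, 1 of the 9 passed, *Slc39a14*, against 23.0% of all tested genes. DESeq2, the tool the study used, called 1 member, again *Slc39a14*, where it called 9.83% of its tested genes. The log2 fold change (GF over CONV-R) was positive for 8 of the 9, with a median of 0.18, against 6337 positive of 12905 and a median of -0.01 over all tested genes; the signs of *Mt1*, *Mt2* and *Slc39a8* turned in some of the fits that left out 1 mouse. In a sorted population, fewer expressing cells and less RNA per cell cannot be told apart.

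*Mt1* had similar mean levels in both groups and a wide spread between mice. Its CPM ranged from 13.7 through a median of 17.1 to 64.0 in the 6 CONV-R mice, and was 16.8, 8.89, 38.9, 37.9 and 37.4 in GF replicates 1, 2, 4, 5 and 6. CONV-R replicate 3 was the highest and GF replicate 2 the lowest of all 11 libraries, and 3 GF mice lay above the other 5 CONV-R mice. The means were 25.9 ± 19.4 (SD, n = 6) and 28.0 ± 14.1 (SD, n = 5), a log2 fold change of 0.12 (SE 0.41, edgeR adjusted p = 0.907). Its 95% interval, -0.75 to 0.99, corresponds to anything from 0.594-fold to 1.98-fold. The high CONV-R library was replicate 3, the one that stood apart in its share of short genes; without it the log2 fold change was 0.61, with an adjusted p of 0.286. It turned negative in 5 of the 11 fits that left out 1 mouse (CONV-R replicate 5 or 6, or GF replicate 4, 5 or 6), down to -0.04.

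*Mt2* was the weaker of the pair. Its CPM ran from 1.94 through a median of 3.84 to 10.9 in CONV-R mice and was 2.99, 0.676, 8.57, 8.86 and 4.07 in GF replicates 1, 2, 4, 5 and 6. CONV-R replicate 3 was the highest of all 11 libraries and GF replicate 2 the lowest, as for *Mt1*. The log2 fold change was 0.11 (SE 0.53, adjusted p = 0.936), with an interval from -1.02 to 1.24, and it rested on 7 to 90 counts per library. Without CONV-R replicate 3 the *Mt2* value was 0.54 (adjusted p = 0.575), without GF replicate 5 it was -0.18 (adjusted p = 0.877), and limma voom gave -0.08 (adjusted p = 0.955). Differences of either metallothionein within these intervals were not detectable with these mice. *Mt3* and *Mt4*, the metallothioneins of brain and stratified epithelium, had 0 counts in every library.

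The 2 metallothionein transcripts varied together from mouse to mouse, as the plot of *Mt2* against *Mt1* shows. The ratio of raw *Mt1* to *Mt2* counts was 3.12 to 7.08 in CONV-R mice (median 6.02), and in GF mice it was 4.28 to 13.1 (median 5.63). When each gene was scaled to its own mean and SD over the 11 libraries, *Mt2* ranked 40 among the 12904 other tested genes by closeness to *Mt1* (root mean square difference 0.422, median of all genes 1.37), and *Mt1* ranked 8 by closeness to *Mt2*. The 3 genes nearest to *Mt1* were *Txn1*, the cytosolic thioredoxin (0.257), *Higd2a*, a factor of respiratory chain assembly (0.272), and *Atraid*, a retinoic acid-induced gene (0.295). Nearest to *Mt2* were *Mrps24*, a mitochondrial ribosomal protein gene (0.339), *Klf16*, for a zinc finger transcription factor (0.339), and *Rab29*, for a small GTPase (0.352). These orders describe 11 libraries that share their composition differences.

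*Mt1* has 1246 exon bases, and its annotated transcripts have 549, 633 and 1085 bases. The share of counts on short genes was compared with *Mt1* library by library. CONV-R replicate 3 was highest in both. The 3 GF mice with 37.4 to 38.9 CPM of *Mt1* had shares of 1.13% to 1.19%, and GF replicates 1 and 2, with 16.8 and 8.89 CPM, had 0.911% and 1.03%. Among the other 5 CONV-R mice, the highest share, 1.01% in replicate 5, came with 14.5 CPM, and the most *Mt1*, 28.8 CPM in replicate 1, with 0.935%. No difference in the mean of this share was detected between the groups (exact permutation test, two-sided, p = 0.987). The means were 1.09% in CONV-R and 1.08% in GF mice, with CONV-R replicate 3 included. The medians were 0.942% and 1.13%, and every GF library except replicate 1 lay above the other 5 CONV-R libraries. The part of this share in the spread of the metallothioneins was not tested. Hepatocytes also express metallothioneins, and the part of their RNA in this spread was not tested; the sum of hepatocyte markers had an exact p of 0.366 between the groups.

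**Figure D2:**
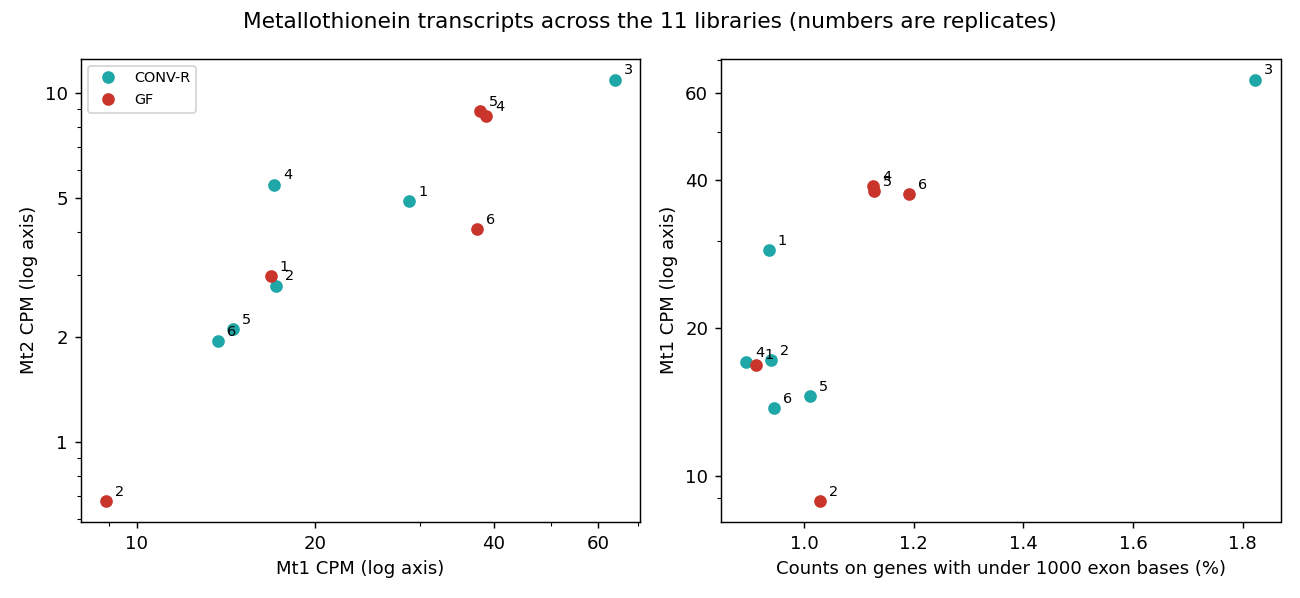
Left, Mt2 against Mt1 in each library (CPM, log axes). Right, Mt1 (CPM, log axis) against the percentage of counts on genes with under 1000 exon bases (linear axis). Each point is 1 of the 11 libraries, labelled with its replicate number; CONV-R replicate 3 is at the upper right of both panels, with 64.0 CPM of Mt1, 10.9 CPM of Mt2 and a share of 1.82%.

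The spread of the metallothioneins was large for their level. The within-group SD of log2 CPM was 0.89 for *Mt1*, larger than for 93.5% of tested genes and for 99.7% of those at a similar level (the same 10% of genes ranked by mean log2 CPM). For *Mt2* it was 1.15, larger than for 98.1% of tested genes and for 99.4% of those at a similar level. *Mtf1*, the zinc sensor upstream of both, was among the steadiest, with an SD of 0.157, larger than for only 8.47% of tested genes and 15.4% of those at a similar level. The other members had SDs from 0.201 (*Slc39a8*) to 0.371 (*Slc39a10*).

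**Figure D3:**
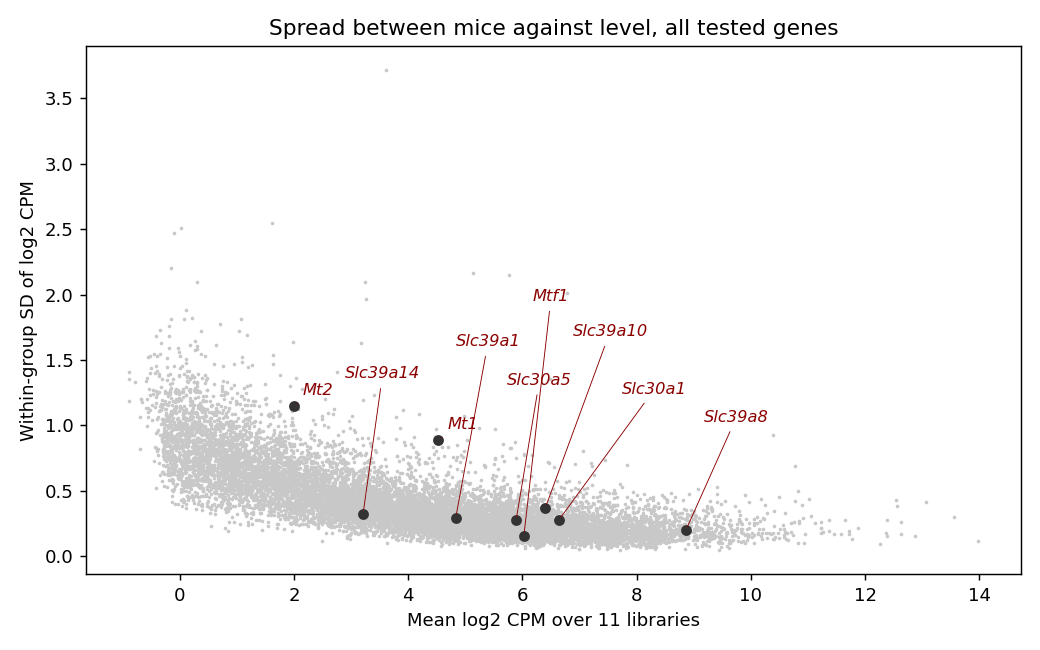
Within-group SD of log2 CPM (vertical) against mean log2 CPM over the 11 libraries (horizontal) for all 12905 tested genes (grey), with the 9 tested members in black. Mt1 and Mt2 lie at the upper edge of the cloud at their level, with SDs of 0.89 and 1.15, and Mtf1, at 0.157, lies near its lower edge.

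*Mtf1* (chr4:124802104-124849800) was expressed at 52.5 to 68.4 CPM in CONV-R mice (median 61.9) and at 73.5, 63.0, 72.1, 62.5 and 80.4 CPM in GF mice. The 3 highest libraries were all GF, but the 2 lowest GF values lay among the CONV-R ones. GF mice differed by 0.20 on the log2 scale (SE 0.12, 95% interval -0.05 to 0.44, adjusted p = 0.333), so that a fold change above 1.36 lay outside the interval.

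Both exporters overlapped between the groups. *Slc30a1* encodes ZnT1, the zinc exporter of the plasma membrane, and had 79.6 to 111 CPM in CONV-R mice (median 92.9) and 80.6, 92.8, 103, 106 and 159 CPM in GF replicates 1, 2, 4, 5 and 6. Its log2 fold change was 0.18 (95% interval -0.14 to 0.51, adjusted p = 0.517), and 0.00 without GF replicate 6. That library also held the most Kupffer cell marker RNA, 912 CPM, whose part in the value was not tested. *Slc30a5* (chr13:100802648-100833427) encodes ZnT5, which loads zinc into the secretory pathway. It had 49.8 to 90.2 CPM in CONV-R mice (median 51.8) and 48.8, 66.1, 61.9, 69.0 and 62.5 CPM in GF mice. Only CONV-R replicate 3, at 90.2, exceeded all GF libraries, and the other 5 CONV-R mice lay below 4 of the 5 GF mice. On the log2 scale the difference was 0.07 (95% interval -0.26 to 0.40, adjusted p = 0.843), and 0.23 without CONV-R replicate 3 (adjusted p = 0.25).

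Among the importers, *Slc39a8* was by far the most abundant member. It encodes ZIP8, a transporter of zinc and manganese, lies at chr3:135825279-135888572, and was expressed above 97.6% of all tested genes. Its CPM was 433 to 546 in CONV-R mice (median 474) and 347, 428, 542, 432 and 541 in GF mice. The groups overlapped, with 3 of the 5 GF libraries below the lowest CONV-R library and GF replicate 1 the lowest of all. It was the 1 member with a negative log2 fold change, -0.06 (SE 0.12, adjusted p = 0.804), with a 95% interval of -0.32 to 0.19, or 0.804-fold to 1.14-fold.

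*Slc39a10* (chr1:46807544-46892852) encodes ZIP10, an importer at the plasma membrane. It had 49.6 to 91.2 CPM in CONV-R mice (median 82.3) and 125, 115, 106, 87.6 and 62.4 CPM in GF replicates 1, 2, 4, 6 and 5. The 3 highest libraries were GF, while GF replicate 5 lay below 5 of the 6 CONV-R mice. The log2 fold change was 0.37 (SE 0.18, 95% interval -0.01 to 0.75, adjusted p = 0.234). *Slc39a1* (chr3:90248172-90253612), for the widely expressed plasma membrane importer ZIP1, had 23.1 to 32.9 CPM in CONV-R mice (median 25.5) and 33.4, 22.3, 41.0, 24.1 and 37.8 CPM in GF mice. The upper 3 GF libraries exceeded every CONV-R library and the lower 2 lay below the CONV-R median, for a log2 fold change of 0.26 (95% interval -0.11 to 0.62, adjusted p = 0.398), and of 0.14 without GF replicate 4 (adjusted p = 0.699).

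*Slc39a14* (chr14:70303469-70351425) encodes ZIP14, the importer that the acute phase response induces in liver, and was the member with the largest difference. Its CPM was 5.73 to 11.8 in CONV-R mice (median 6.79) and 12.9, 15.6, 11.5, 9.52 and 10.4 in GF replicates 1, 2, 4, 5 and 6. The groups overlapped through CONV-R replicate 3 alone: the other 5 CONV-R mice had at most 7.71 CPM, below every GF mouse. The means were 7.50 ± 2.20 (SD, n = 6) and 12.0 ± 2.39 (SD, n = 5), 1.61-fold higher in GF (95% interval 1.17 to 2.22). The log2 fold change was 0.69 (SE 0.22). It missed the threshold in edgeR's quasi-likelihood test, with an unadjusted p of 0.00615 and an adjusted p of 0.0666. The call depended on the method and on single libraries. DESeq2 gave an adjusted p of 0.028 and limma voom 0.0333; without CONV-R replicate 3 the edgeR value was 0.0142, at a log2 fold change of 0.85, and without GF replicate 5 it was 0.0481. Over all alternatives the adjusted p lay between 0.0142 and 0.16. The gene had only 71 to 198 counts per library.

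*Slc39a7*, for the importer ZIP7 of the endoplasmic reticulum, had 11 counts in all over the CONV-R libraries and 21 over the GF libraries, at most 8 in any one, and was not tested. In GENCODE M21, 2084 of its 2584 exon bases lie in exons of *Gm20427* on the same strand, which itself had 0 to 6 counts. How reads over shared exons were counted is not given in the sources used here, so its level cannot be interpreted.

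Per kilobase of exon, *Slc39a8* led with 62.4 ± 5.16 CPM in CONV-R (SD, n = 6) and 59.8 ± 10.9 in GF mice (SD, n = 5). *Mt1* and *Slc30a1* followed, with 20.8 ± 15.6 and 18.2 ± 2.20 CPM per kilobase in CONV-R and 22.5 ± 11.3 and 20.6 ± 5.76 in GF mice, and did not differ from each other beyond their spread. *Slc39a10* (12.6 ± 2.74 and 16.3 ± 4.08) and *Slc39a1* (11.3 ± 1.55 and 13.4 ± 3.50) came next and also overlapped. The levels of *Slc30a5* (8.06 and 8.45), *Mt2* (7.97 and 8.56) and *Mtf1* (6.89 and 7.89) in CONV-R and GF mice lay close together, and *Slc39a14* was lowest of the tested members, at 0.711 ± 0.209 and 1.14 ± 0.227 CPM per kilobase. In these sorted ECs, the mean level per kilobase of the importer transcript *Slc39a8* exceeded those of both metallothionein transcripts. Proteins were not measured. The order depends on the length used. Per kilobase of the longest coding transcript, *Slc30a5* had 18.5 CPM in CONV-R mice, above *Slc39a10* at 14.0 and close to *Slc30a1* at 18.2. In GF mice *Slc30a5* had 19.4 CPM, above *Slc39a10* at 18.1 and below *Slc30a1* at 20.6. The 1246 exon bases of *Mt1* cover its whole gene span, while its annotated transcripts have 549, 633 and 1085 bases. By the shorter transcripts, the level of *Mt1* per kilobase would be higher than printed here.

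Several members share sequence or position with other genes. Of the 588 exon bases of *Mt2*, 432 lie opposite exons of the antisense gene *Gm45774*, which is not in the count table; the strand setting of the counting is not given, and the labels and the study's methods name different library kits, so reads of *Gm45774* may be included in the *Mt2* value. The processed pseudogene *Slc39a1-ps* holds 21.8% of the 50-base stretches of *Slc39a1*, so some of its reads may have been lost or moved. Overlaps were smaller for *Slc30a1* (8.92% of exon bases, with *1700034H15Rik*) and *Mtf1* (8.10%, with *1110065P20Rik*), and *Mt1* had none.

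Among the remaining zinc transporters, edgeR's test called importers and no exporter. Of 9 other importers 7 were tested, and 2 rose in GF mice, against 4.80% of all tested genes that rose, with all 7 log2 fold changes positive and a median of 0.29. *Slc39a12*, for the importer ZIP12, had 8.84 to 12.9 CPM in CONV-R mice (median 10.9) and 18.6, 21.0, 19.9, 12.3 and 18.2 CPM in GF mice. Only GF replicate 5 fell among the CONV-R values, and the log2 fold change was 0.69 (SE 0.18, edgeR adjusted p = 0.0235). *Slc39a6*, for ZIP6, a close relative of ZIP10, had 19.3 to 39.5 CPM in CONV-R mice (median 25.8) and 29.2, 41.7, 46.7, 53.9 and 42.9 CPM in GF mice, a log2 fold change of 0.63 (SE 0.19, adjusted p = 0.0461). Both calls depended on single libraries. That of *Slc39a6* was lost in 9 of the 11 fits that left out 1 mouse, with adjusted p up to 0.107, and was kept without CONV-R replicate 3 and without GF replicate 1; that of *Slc39a12* was lost without CONV-R replicate 4 or 6 or GF replicate 2 or 4, with adjusted p from 0.0506 to 0.0629.

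Of 9 other exporters 4 were tested, with 0 called and a median log2 fold change of -0.07. At an unadjusted p under 0.05 there were also 0, and DESeq2 called 1, higher in GF. Over all 25 zinc transporters listed, members included, 17 were tested, 2 rose, 0 fell, and 14 had a positive log2 fold change, with a median of 0.18, where 4.80% of all tested genes rose and 6337 of 12905 were positive. Both genes that rose are the importers above, whose calls were each lost in several fits that left out 1 mouse.

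**Figure D4:**
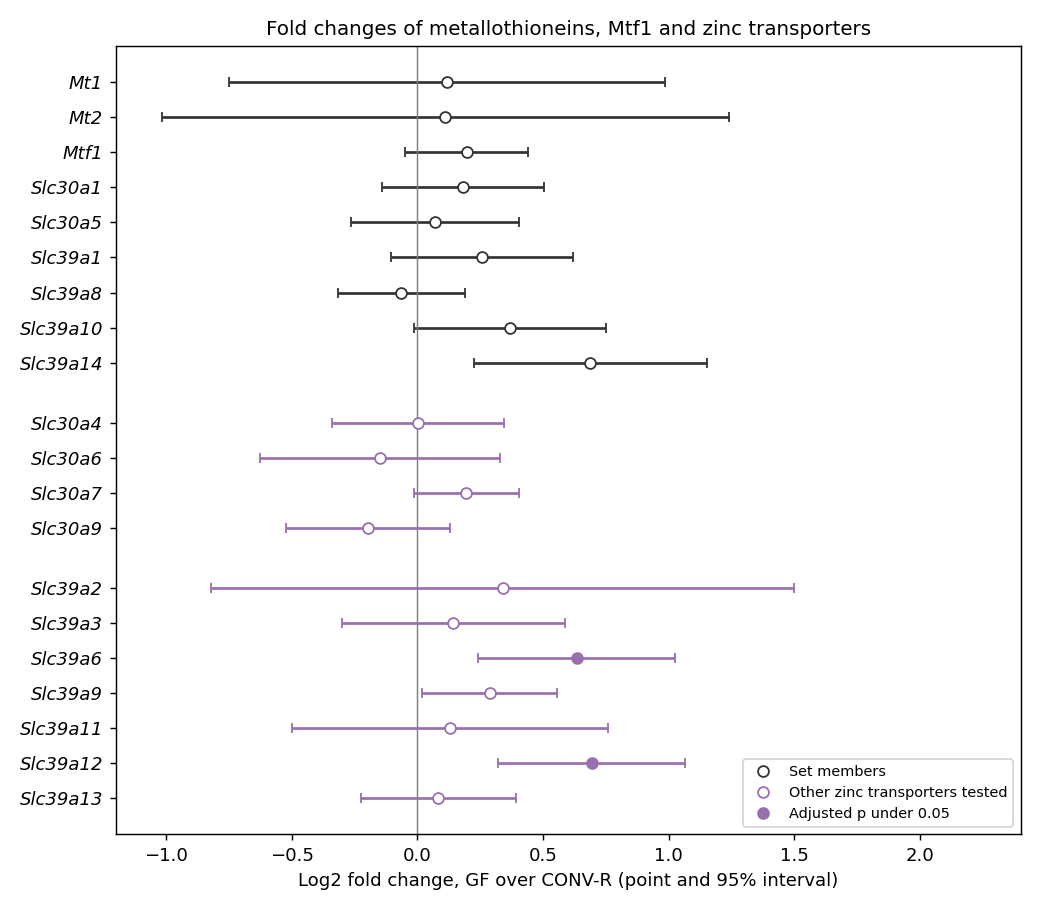
Log2 fold change, GF over CONV-R (horizontal, points with 95% intervals), for the 9 tested members (black) and the 11 other tested zinc transporters (purple). Filled points have an adjusted p under 0.05: Slc39a6 and Slc39a12. The intervals of Mt1 and Mt2 are the widest of the members, and that of Slc39a14, 0.22 to 1.15, is the only one of a member that does not include 0.

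Neighbouring pathways were counted in the same fit. Of 6 other targets of MTF-1, 5 were tested and 1 rose, where 4.80% of all tested genes did: *Ndrg1*, a stress and hypoxia response gene, went from 143 ± 10.8 CPM (SD, n = 6) to 257 ± 17.6 (SD, n = 5), a log2 fold change of 0.84 (adjusted p = 3.75e-05) with no overlap between the groups. Of 9 genes of copper handling 8 were tested and 0 were called, at a median log2 fold change of 0.01, with 2 at an unadjusted p under 0.05 and 0 called by DESeq2 as well; over all tested genes 7.48% were called and 23.0% had an unadjusted p under 0.05.

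Glucocorticoids induce *Mt1* and *Mt2* in many tissues. Here 9 of 12 genes of the glucocorticoid response rose in GF mice, where 4.80% of all tested genes did. The median log2 fold change over the list was 1.62, against -0.01 over all tested genes. The groups did not overlap for 9 of the 12, against 5.59% of all tested genes. The study had already reported *Fkbp5*, *Per1*, *Dusp1*, *Zbtb16*, *Klf9*, *Klf15* and *Cdkn1a* as higher in GF mice. The list was chosen with such results known, so its counts are not independent of them. The receptor gene *Nr3c1* itself had a log2 fold change of 0.00 (95% interval -0.21 to 0.21), and *Sgk1* and *Errfi1* were not called either. *Fkbp5*, a feedback regulator of the receptor, had 39.8 ± 6.48 CPM in CONV-R and 121 ± 15.8 in GF mice (SD, n = 6 and 5; log2 fold change 1.61, adjusted p = 1.52e-06). *Tsc22d3*, the anti-inflammatory GILZ, rose by 1.59 on the log2 scale (adjusted p = 2.22e-06) and the clock gene *Per1* by 3.33 (adjusted p = 8.69e-06). The others that rose were *Dusp1*, *Zbtb16*, *Klf9*, *Klf15*, *Cdkn1a* and *Ddit4*, at log2 fold changes from 0.92 to 7.19, the highest for *Zbtb16*, which had 9 counts in all over the CONV-R libraries.

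Of 10 genes of the acute phase and cytokine response, 7 were tested and 2 called, 1 in each direction, where 7.48% of all tested genes were called. *Stat3*, the transcription factor downstream of interleukin 6, rose by 0.50 on the log2 scale (adjusted p = 0.0149), and its feedback inhibitor *Socs3* fell by 1.39 (adjusted p = 0.0275). The groups did not overlap for either gene, as for 5.59% of all tested genes. The call of *Socs3*, on 7 to 83 counts per library, was lost in 5 of the 11 fits that left out 1 mouse, with adjusted p up to 0.0649. The median over the list was 0.27, and all 7 tested genes had an unadjusted p under 0.05, 4 with positive and 3 with negative log2 fold changes, against 23.0% of all tested genes.

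**Figure D5:**
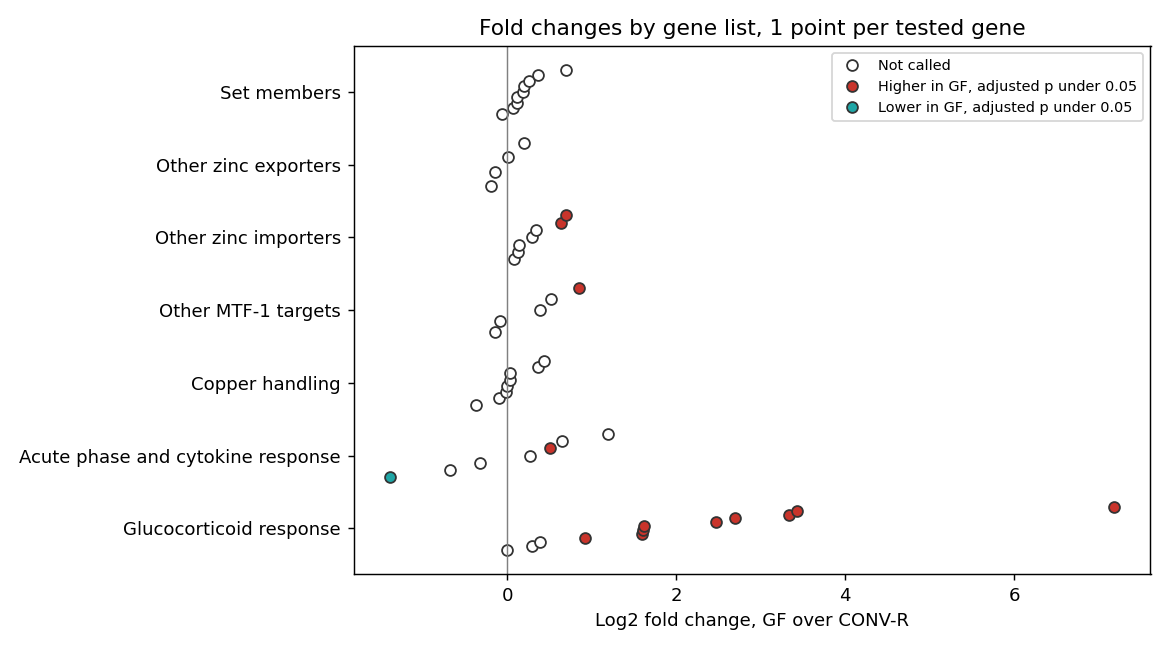
Log2 fold change, GF over CONV-R (horizontal), of each tested gene of the set and of 6 other gene lists (rows), 1 point per gene; the vertical offset within a row only separates points. Open points were not called, red points were called higher and turquoise points lower in GF. The set members lie between -0.06 and 0.69, and the glucocorticoid response reaches 7.19.

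Markers of other cells were counted beside these results. The Kupffer cell genes that rose were *Adgre1*, *Csf1r*, *Timd4*, *Clec4f*, *C1qb* and *Vsig4*, at log2 fold changes of 1.97, 1.85, 1.58, 1.55, 1.53 and 1.31. The summed difference was 253 CPM, and 123 CPM without GF replicate 6. Summed marker levels in CONV-R and GF mice were 189 and 252 CPM for stellate cells (exact p = 0.0455, of which *Hgf* made up 171 and 235 CPM, with *Lrat* at 4.92 and 1.89 CPM and 0 of 4 tested genes called), 3.80 and 21.7 CPM for cholangiocytes (p = 0.00216, the smallest an exact permutation test can give here, with *Spp1* at 2.47 and 13.2 CPM the 1 gene called of 2 tested), 8.49 and 4.37 CPM for lymphocytes (exact p = 0.0216), 20.4 and 11.6 CPM for erythroid cells (exact p = 0.0541) and 1.55 and 0.323 CPM for neutrophils (exact p = 0.0693). The general endothelial list gave 12422 and 13494 CPM (exact p = 0.323) and the sinusoidal list an exact p of 0.513. After Benjamini-Hochberg adjustment over the 9 marker lists, the exact p was 0.0194 for cholangiocytes, 0.0486 for Kupffer cells, 0.0648 for lymphocytes and 0.0974 for stellate and for erythroid cells, 0.104 for neutrophils, 0.412 for hepatocytes and general endothelium, and 0.513 for the sinusoidal list. No marker gene was at 0 over all libraries. Kupffer cells, hepatocytes and stellate cells also express zinc transporters, and the part of these cells in the values of *Slc39a14*, *Slc39a6* and *Slc39a12* was not tested.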

How the data were processed

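RNA from sorted hepatic sinusoidal ECs of 6 CONV-R and 5 GF mice was measured, grouped by the labels. The raw counts per gene were deposited by the authors, who trimmed the reads (Trim Galore), mapped them to GRCm38 (STAR) and counted them with featureCounts; the annotation release and the counting of overlapping genes are not given in the sources used here. Their normalized table was not used. Reads had 50 bases and no molecular identifiers, and cDNA was amplified. Intervals of fold changes come from the fit across mice and include the spread between them.

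Counts were analysed in R 4.3.3 with edgeR 4.0.16 (filterByExpr, TMM, quasi-likelihood test, Benjamini-Hochberg over 12905 genes, threshold 0.05, prior count 2 for log2 CPM), which was tested on simulated data. Alternatives were DESeq2 1.42.0 (test and size factors), voom of limma 3.58.1, no filter, a filter of 10 counts in every library, robust dispersion, a replicate block and each mouse left out. Marker sums, library totals and shares were compared by two-sided exact permutation tests over 462 splits. Lengths and overlaps came from GENCODE M21, matching 29146 of 29307 genes. RefSeq promoter windows were found for 9 of the 10 members, and not for *Slc39a14*. Figures were drawn with matplotlib.

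The members and all lists were chosen with earlier results of these data known. Named were the 10 members, list genes with adjusted p under 0.05, the 3 genes nearest to *Mt1* and to *Mt2*, sorting markers, and listed genes where a count was 5 or fewer. *Hgf* and *Lrat* among the stellate markers, and *Alb*, *Nr3c1*, *Sgk1* and *Errfi1*, were named after their values were seen.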

Additional observations from a re-analysis of the deposited data

Results flagged for a closer look

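Of 70 sets of values per group examined for a single library far from the others, 8 had one, and chance alone flags about 1 in 20. CONV-R replicate 3 was high in 4 of them: *Mt1*, with 64.0 CPM against 13.7 to 28.8 in the other CONV-R libraries; *Slc30a5*, with 90.2 CPM against 49.8 to 58.5; *Slc39a14*, with 11.8 CPM against 5.73 to 7.71; and the share of counts on genes under 1000 exon bases, with 1.82% against 0.894% to 1.01%. Among the CONV-R libraries, replicate 4 had the most *Ddit4*, a stress response gene, with 1.69 CPM against 0.205 to 0.727. It also had the lowest ratio of *Mt1* to *Mt2* counts, 3.12 against 5.85 to 7.08. GF replicate 5 had the lowest sum of general endothelial markers, 9942 CPM against 14040 to 14532, and GF replicate 6 the highest sum of Kupffer cell markers, 912 CPM against 193 to 354. What set these libraries apart was not tested.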

How the results depend on the processing

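With 965 genes called at the settings used, DESeq2 called 1527, and leaving out 1 mouse gave 622 to 1260, with 625 without CONV-R replicate 4 and 622 without GF replicate 6. The count of members called was 1, *Slc39a14*, in place of 0 under DESeq2, limma voom, the replicate block, the same 10 libraries without the block, and with CONV-R replicate 3 and GF replicate 6 left out together, an alternative chosen after seeing the data; it was 0 to 1 with each mouse left out, and 0 with DESeq2's size factors, no filter, at least 10 counts in every library and robust dispersion. DESeq2 called 1 other exporter in place of 0, and 4 acute phase genes in place of 2. The other importers had 0 to 2 calls with each mouse left out and 1 without both libraries, and the acute phase genes 1 to 4. The log2 fold change of *Mt1* ranged from -0.0364 to 0.606 with each mouse left out and was negative in 5 of these 11 fits. That of *Mt2* ranged from -0.185 to 0.535 and was -0.0784 under voom. *Slc30a1* turned to -0.0434 without both libraries, and *Slc39a8* to 0.0220 without GF replicate 1, the highest of its leave-one-out values from -0.133. None of these reversals passed the threshold in either direction, and their causes were not tested.

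*Mt2* had under 10 counts in GF replicate 2 and therefore has no value under the filter on every library. The calls of the MTF-1 targets, copper and glucocorticoid lists stayed within 1.5 times their counts under every alternative. The difference in the Kupffer marker sum, 253 CPM higher in GF, was 123 to 303 CPM with each mouse left out, the lowest without GF replicate 6, with an exact p from 0.00952 to 0.0397.

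Replicate numbers name different mice, and same-numbered libraries correlated at -0.01 to 0.20, over 0.1 in 1 of 5 pairs, so the numbers were not taken as pairs. With the replicate block, 1 member was called: *Slc39a14*, at a log2 fold change of 0.84 and an adjusted p of 0.0227, against 0.85 and 0.0142 in the same 10 libraries without it. Over all genes, 1101 were called with the block and 931 without it.

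Groups held 5 and 6 mice, and counts per library were 92 to 521 for *Mt1*, 7 to 90 for *Mt2* and 71 to 198 for *Slc39a14*.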
